A study of Mus musculus with 40 samples.

Results

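Gfap and 9 genes that mark astrocytes in the healthy brain (Aqp4, Gja1, Aldoc, Glul, Slc1a2, Slc1a3, S100b, Apoe and Clu) were followed across 4 groups of mice in cortex RNA. All 10 genes had rows in the deposited table, in 14 RefSeq transcripts out of 6831 transcripts of 5846 gene symbols, and every row that mapped to one of these symbols was used. The set was selected on the measured response of Gfap to head impact in these same libraries, so the Gfap values for impact against sham are given as a description with no test, and the other 9 genes serve as its comparison. Male C57BL/6 mice aged 12 weeks received repeated closed head impacts at high frequency (HF-HI) or a sham procedure, and the cortex was collected 24 h after the final one. Before each session, by 1 h, the mice had an injection of saline or of memantine, a channel blocker of NMDA-type glutamate receptors. This gave 4 groups, sham and HF-HI under saline and sham and HF-HI under memantine, with 10 libraries per group. Per the study's methods sham mice went through the same isoflurane anaesthesia as impacted mice, so anaesthesia was shared by all groups. No genetic modification is named in the labels.

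Astrocytes clear glutamate and potassium from the extracellular space, supply neurons with glutamine and lipids, and line blood vessels with endfeet rich in water channels. After injury they enlarge and make more of the intermediate filament protein GFAP, whose level is widely used as a sign of astrocyte reactivity. In the undisturbed cortex many astrocytes hold little GFAP, while the glutamate transporters and glutamine synthetase are abundant in nearly all of them.

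Read counts were scaled for library depth and are called normalised read counts below. A library held between 13322404 and 17529644 counts in all, and no transcript in the table had a mean under 549.2 normalised read counts. In saline sham libraries, per kilobase of transcript, Apoe had the highest level at 9524 ± 517 normalised read counts per kilobase (SD, n = 10) and Gfap the lowest at 473 ± 86.7. Between these stood Glul, Slc1a2, Clu, Aldoc, Slc1a3, S100b, Gja1 and Aqp4, in that falling order. Only transcripts in the table count toward this order. For Gfap, Aqp4, Slc1a2 and Apoe RefSeq lists 2, 9, 4 and 4 protein-coding transcripts, more than the table held. The library ranges of neighbours in this order overlapped except between Slc1a2 and Clu, between Aldoc and Slc1a3, between Slc1a3 and S100b, and between Aqp4 and Gfap. Per kilobase, Gfap in every saline sham library was thus below Aqp4, its nearest neighbour. It was also the most variable member, with a coefficient of variation within groups of 17.7%, followed by Aqp4 with 16.7%. The other 8 genes varied by 3.89% (Slc1a2) to 7.86% (Apoe), against a median of 6.59% over all symbols. Counting error alone gives 2.67% at the mean count of Gfap.

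The astrocyte genes were compared with markers of other cells and regions in the same libraries. Of a list of 71 other astrocyte identity genes, 49 were in the table, and their summed count ran from 142440 to 153060 in saline sham and from 142740 to 156710 in saline HF-HI libraries. All 14 neuronal markers on a second list were present. Of 20 markers of the striatum, the region below the cortex, 14 were present, and their summed count was 68801 ± 7743 in sham and 60577 ± 4319 in HF-HI under saline, and 68405 ± 8590 in sham and 66185 ± 7381 in HF-HI under memantine (SD, n = 10 each). These markers differed between the saline groups, with 9 of 27 transcripts lower in HF-HI at an unadjusted p under 0.05 (limma), beside 4.95% of all transcripts lower in that comparison. The summed count of 12 oligodendrocyte markers ran from 59838 to 89286 over all 40 libraries and its group means lay between 71966 and 74155.

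Gfap encodes the glial fibrillary acidic protein, the main intermediate filament of astrocytes. The table held 1 Gfap transcript, NM_010277, on the minus strand of chromosome 11 (gene at chr11:102887336-102897200, build GRCm38.p6), with 9 exons and 2648 bases. The promoter window that RefSeq gives for Gfap (GRCm38.p6) lies wholly upstream of the start of NM_010277 at 102897131. It is printed here with a window of Aldoc and that of Slc1a3, because these held the sequence TTCNNNGAA, in which N is any base. This is the general form of a site for STAT factors, which act on Gfap in development and after injury. Capitals mark the matches, each window is written 5′ to 3′ on the strand of its gene, and the letters read the same on both strands.
Gfap, chr11:102897151-102897450, minus strand: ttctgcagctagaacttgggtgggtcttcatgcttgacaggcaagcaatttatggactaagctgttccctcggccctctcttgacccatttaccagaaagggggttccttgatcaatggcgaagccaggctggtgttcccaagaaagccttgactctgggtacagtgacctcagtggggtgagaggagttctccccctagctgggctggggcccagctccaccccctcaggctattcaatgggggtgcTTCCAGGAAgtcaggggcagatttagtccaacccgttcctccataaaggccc
Aldoc, chr11:78323948-78324247, plus strand: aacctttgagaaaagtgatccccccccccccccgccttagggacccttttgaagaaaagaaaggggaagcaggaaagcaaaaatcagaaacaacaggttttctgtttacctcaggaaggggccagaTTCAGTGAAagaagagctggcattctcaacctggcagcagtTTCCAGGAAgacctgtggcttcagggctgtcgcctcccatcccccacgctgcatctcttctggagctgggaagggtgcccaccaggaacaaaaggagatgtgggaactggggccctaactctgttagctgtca
Slc1a3, chr15:8710758-8711057, minus strand: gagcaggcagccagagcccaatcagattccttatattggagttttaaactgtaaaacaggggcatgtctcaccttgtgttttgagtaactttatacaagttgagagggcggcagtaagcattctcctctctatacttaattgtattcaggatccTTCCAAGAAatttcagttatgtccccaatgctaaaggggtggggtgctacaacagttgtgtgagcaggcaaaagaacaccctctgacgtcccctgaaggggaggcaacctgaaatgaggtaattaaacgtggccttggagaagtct
The Gfap match begins at base 249 of its window of 300 bases. In the printed Aldoc window the matches begin at bases 127 and 168, and in the Slc1a3 window the match begins at base 155. This Aldoc window holds the start of NM_009657, the transcript with the smaller part of the Aldoc count. The other Aldoc window, chr11:78322823-78323122, holds the start of NM_001303423, the transcript with most of the count, and had no TTCNNNGAA match. Across 32851 RefSeq windows of this length, 8.3% held TTCNNNGAA. Matches to TGANTCA (AP-1, in 7.81% of all windows), TTGGCA (the half-site of NFI factors, in 14.1%) and TATAAA (in 13.6%), searched on both strands, were not found in the Gfap window. The Gja1 window held 1 TGANTCA match at base 232. Windows were given for Gfap, Gja1, Aldoc, Glul, Slc1a2, Slc1a3, S100b and Apoe. Such matches are a description of the letters and were not tested for use.

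Gfap was higher after impact with either pretreatment. In saline sham libraries the Gfap count ran from 1034 to 1654 with a median of 1182, and in saline HF-HI libraries from 1018 to 2270 with a median of 1487. In memantine sham libraries it ran from 1004 to 1394 with a median of 1150, and in memantine HF-HI libraries from 1218 to 2070 with a median of 1540. The groups overlapped in both pairs. Under saline 9 of 10 HF-HI libraries lay above the sham mean and 3 above the highest sham library, and 1 lay below the lowest. Under memantine 10 of 10 lay above the sham mean and 8 above the highest sham library. The means were 1253 ± 230 in sham and 1546 ± 347 in HF-HI under saline, and 1179 ± 146 and 1613 ± 257 under memantine (SD, n = 10 each). In a fit with a term per group, Gfap was 22.5% higher under saline and 36.2% higher under memantine. On the log2 scale of counts plus 1 these changes were 0.29 and 0.45.

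**Figure D1:**
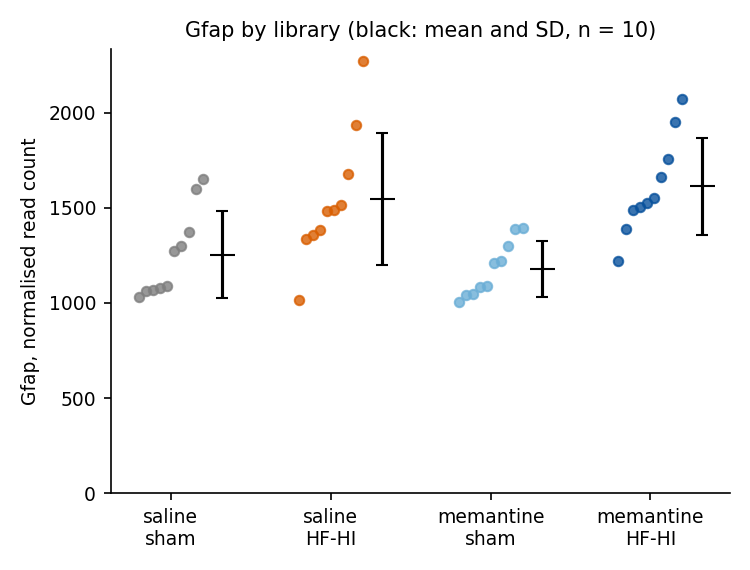
Normalised read count of Gfap (vertical axis) in each library of the 4 groups, with the mean and SD of 10 libraries in black. The 8 highest memantine HF-HI libraries lie above every memantine sham library, while saline HF-HI spans 1018 to 2270 and covers the whole saline sham range.

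The Gfap values were computed again with marker means of the tissue piece as covariates. The striatal markers differed between the saline groups, while the group means of the oligodendrocyte markers lay between 71966 and 74155. With the striatal marker mean as a covariate, the log2 change of Gfap was 0.31 under saline and 0.45 under memantine. With the oligodendrocyte marker mean as a covariate it was 0.29 and 0.47. In whole-tissue RNA a larger number of cells that hold Gfap and more Gfap RNA per cell cannot be told apart.

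Memantine itself was compared with saline for Gfap. The same libraries gave the impact changes on which Gfap was chosen, so these tests are not independent of that choice. In the HF-HI groups Gfap was 0.08 higher on the log2 scale under memantine (95% interval -0.14 to 0.30, limma unadjusted p = 0.510, adjusted p = 1.00), and 5 of 10 libraries lay above the saline HF-HI mean. In the sham groups the difference was -0.08 (-0.30 to 0.14, p = 0.487, adjusted p = 0.907). The difference between the impact changes of the 2 drug arms was 0.15 (-0.16 to 0.47, p = 0.340, adjusted p = 0.999). None of these 3 passed. The interval of the last does not show that Gfap responded alike in both arms.

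The other 9 genes stayed near their sham level. Summed over transcripts, their changes under saline lay between -2.74% (Slc1a3) and 4.25% (Clu), with 8 of 9 higher. Under memantine they lay between -1.83% (Slc1a2) and 7.41% (Gja1), with 5 of 9 higher. Among their 13 transcripts, 1 passed an unadjusted p under 0.05 in each impact comparison by limma, against 9.53% of all 6831 transcripts under saline and 4.61% under memantine. The median log2 change of the 13 was 0.03 under saline and -0.01 under memantine, beside 0.00 over all transcripts in both. With a Benjamini-Hochberg adjusted p over the whole table under 0.1, limma called none of the 13 in any comparison. Over all transcripts that rule called 0.205% under saline, 0.0146% under memantine, 0.0293% between the sham groups and none between the HF-HI groups or between arms. The 95% intervals of 8 of these genes, all except Aqp4, lay within -6.33% and 9.23% under saline and within -7.50% and 13.6% under memantine.

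**Figure D2:**
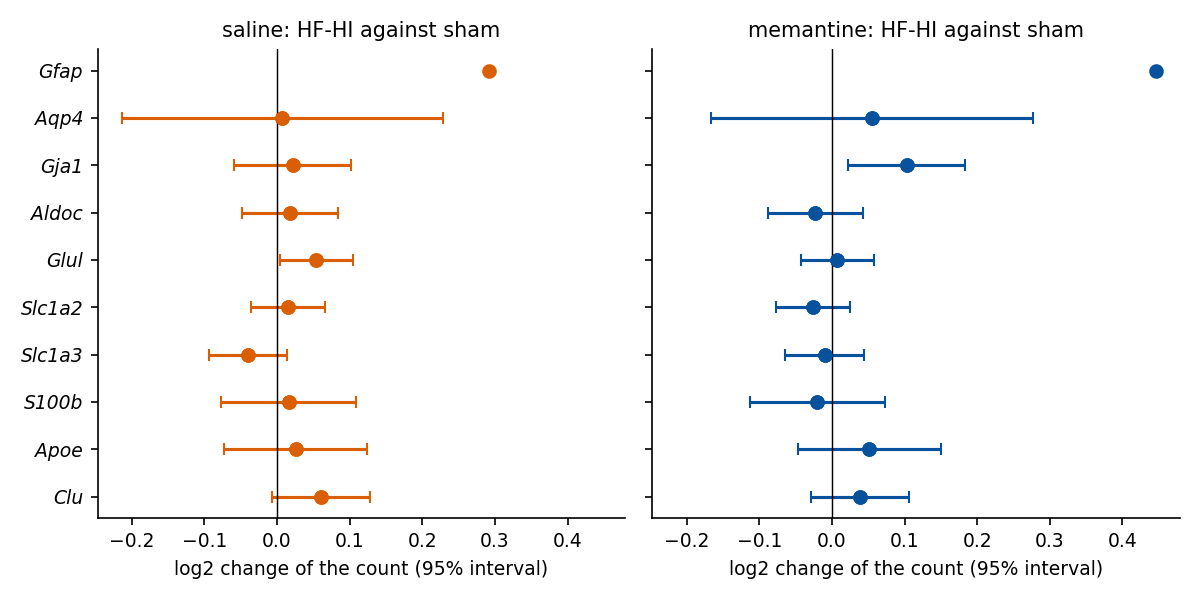
Log2 change of the count (horizontal axis) from sham to HF-HI for each gene, with transcripts summed, under saline (left) and memantine (right); points are estimates from 10 libraries per group, and bars are 95% intervals, drawn for the 9 genes other than Gfap. Gfap stands at 0.29 and 0.45, and the 9 other genes between -0.04 and 0.10, with the widest bars for Aqp4.

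Slc1a2 was the most abundant member by count. It encodes GLT-1, which takes up most of the glutamate released in the cortex, and Slc1a3 encodes GLAST. The summed Slc1a2 count ran from 82807 to 96991 with a median of 90202 in saline sham and from 84706 to 95079 with a median of 91611 in saline HF-HI. In the memantine arm the medians were 92579 in sham and 91587 in HF-HI. These ranges overlapped almost wholly, and the change was 1.08% (-2.43% to 4.71%) under saline and -1.83% (-5.23% to 1.71%) under memantine. The Slc1a3 median was 8787 in sham and 8265 in HF-HI under saline, and 8348 and 8330 under memantine. Only 1 of 10 saline HF-HI libraries lay above the saline sham mean of Slc1a3, yet the change of -2.74% (-6.34% to 1.00%) did not pass (limma p = 0.143, adjusted p = 0.717).

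Glul and Gja1 were the members that passed an impact comparison at an unadjusted p under 0.05. Glul encodes glutamine synthetase, which turns the glutamate that astrocytes take up into glutamine. Its count ran from 23817 to 28548 with a median of 25229 in saline sham, and from 25364 to 27285 with a median of 26453 in saline HF-HI. All 10 saline HF-HI libraries lay above the sham median, although none exceeded the highest sham library. The change was 0.05 on the log2 scale, or 3.79% (0.21% to 7.49%), with a limma p of 0.0386 and an adjusted p of 0.491. Under memantine the Glul change was 0.01 (p = 0.757, adjusted p = 0.990), and the difference between the arms was -0.05 (p = 0.203, adjusted p = 0.999).

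Gja1 encodes connexin 43, the channel protein that joins astrocytes into a network. Its count ran from 2753 to 3263 with a median of 3070 in saline sham, and from 2773 to 3378 with a median of 3074 in saline HF-HI. In memantine sham it ran from 2559 to 3285 with a median of 2783, and in memantine HF-HI from 2682 to 3293 with a median of 3034. Memantine sham was the group that stood apart, with 5 of its 10 libraries below the lowest saline sham library. Gja1 was 0.10 higher in memantine HF-HI than in memantine sham on the log2 scale (95% interval 0.02 to 0.18, limma p = 0.0155, adjusted p = 0.967). It was 0.11 lower in memantine sham than in saline sham (-0.19 to -0.03, p = 0.0127, adjusted p = 0.591). In the second of these comparisons 1 of 13 transcripts passed, beside 7.51% of all transcripts. Both differences use the same memantine sham libraries. The impact changes of the 2 arms differed by 0.08 (-0.03 to 0.20, p = 0.169, adjusted p = 0.999).

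The secreted and metabolic members moved little. Apoe encodes the lipid carrier that astrocytes supply to neurons, and its median was 13673 in sham and 13837 in HF-HI under saline, and 13143 and 13310 under memantine. Clu encodes clusterin, another secreted lipid-binding chaperone. The Clu count ran from 6517 to 8116 with a median of 7456 in saline sham and from 7164 to 8280 with a median of 7626 in saline HF-HI, and 9 of 10 HF-HI libraries lay above the sham mean. That change of 0.06 on the log2 scale did not pass (limma p = 0.0817, adjusted p = 0.614). S100b, a calcium-binding protein also made by some oligodendrocytes, had medians between 1550 and 1556 in all 4 groups. Aldoc encodes the aldolase of brain astrocytes, and its transcripts summed to medians between 10014 and 10220. The shorter Aldoc transcript, NM_009657, held 15.2 ± 1.57% of the Aldoc count in saline sham and 13.3 ± 2.67% in saline HF-HI (SD, n = 10 each). Its own count had a median of 1518 in saline sham and 1329 in saline HF-HI, a log2 change of -0.19 (-0.39 to 0.01, limma p = 0.0631, adjusted p = 0.569).

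Aqp4 encodes the water channel of astrocyte endfeet. It had 2 transcripts in the table, and how the count was divided between them varied widely among libraries of the same group. NM_001308647 held between 12.5% and 54.5% of the Aqp4 count in saline sham, and between 19.7% and 68.3% in saline HF-HI. The sum of both was steadier. It ran from 1310 to 2698 with a median of 2265 in saline sham, and from 1582 to 3007 with a median of 2241 in saline HF-HI. In memantine sham it ran from 1720 to 2687 with a median of 1930, and in memantine HF-HI from 1385 to 2518 with a median of 2091. The impact change of the sum was 0.52% (-13.8% to 17.2%) under saline and 3.90% (-10.9% to 21.1%) under memantine.

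The minor transcripts of Slc1a2 were the other members that passed a test. NM_001077514, with 11595 bases, held on average 95.9% to 98.1% of the Slc1a2 count in the 4 groups. NM_001077515 and NM_011393, with 1957 and 2127 bases, held the rest. The 3 share exons, so reads that fit more than 1 of them were divided by the counting program, and the values of the minor transcripts are uncertain. NM_011393 ran from 298 to 1006 with a median of 417 in saline sham, and from 334 to 1105 with a median of 842 in saline HF-HI. In memantine sham it ran from 327 to 1123 with a median of 760, and in memantine HF-HI from 311 to 947 with a median of 356. No library lay between 455 and 710, and above that gap stood 3 sham and 6 HF-HI libraries of 10 each under saline, against 6 sham and 2 HF-HI libraries under memantine. NM_011393 was 0.62 lower on the log2 scale in memantine HF-HI than in saline HF-HI (-1.19 to -0.05, limma p = 0.0365, adjusted p = 1.00). It was the 1 of 13 transcripts that passed there, beside 3.91% of all transcripts.

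The impact changes of the 2 arms differed for both minor transcripts at an unadjusted p under 0.05. For NM_011393 the difference was -0.92 (-1.73 to -0.12, limma p = 0.0242, adjusted p = 0.999), from 0.36 under saline and -0.57 under memantine. The count of NM_001077515 had a median of 509 in sham and 2372 in HF-HI under saline, and of 2141 and 1688 under memantine, with single libraries from 27.6 to 9625. Its difference between arms was -2.32 (-4.87 to 0.23, p = 0.0408, adjusted p = 0.999). These were 2 of 13 transcripts, beside 3.73% of all transcripts. The limma test used the deposited scale, which compresses low counts, while the interval is on the log2 count scale, so the interval of NM_001077515 includes 0 although its p was under 0.05. Summed over transcripts Slc1a2 did not pass (-0.04, p = 0.246, adjusted p = 0.998).

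**Figure D3:**
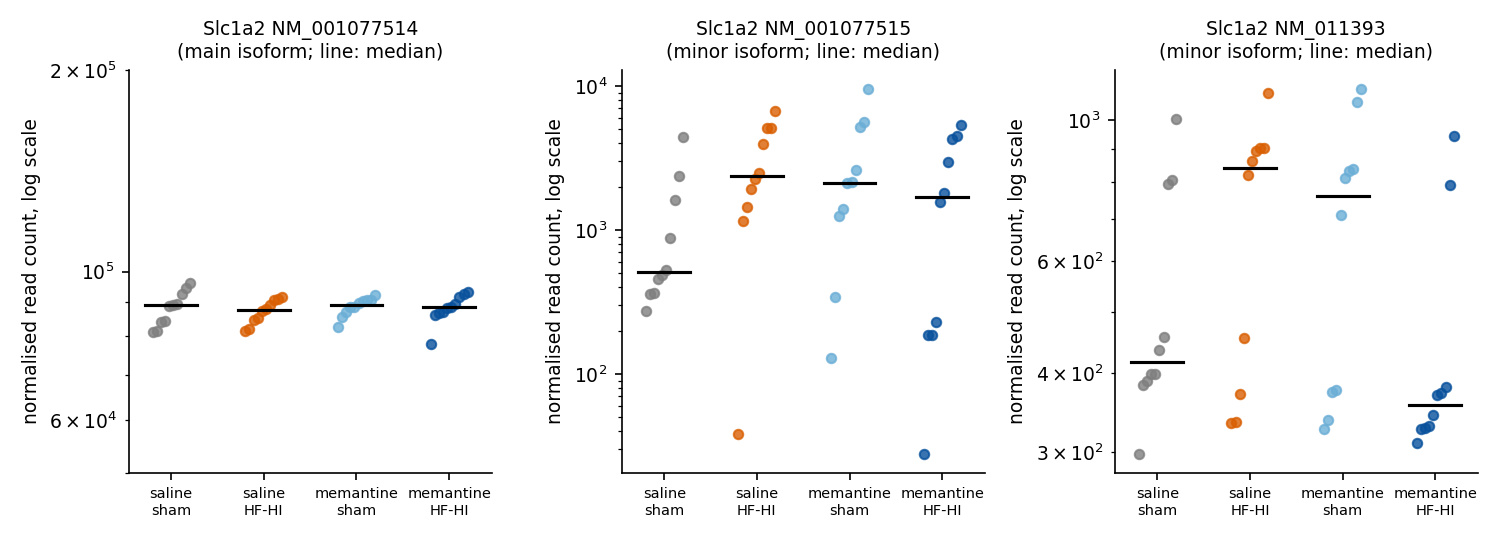
Normalised read count on a log axis (vertical) of the 3 Slc1a2 transcripts in each library of the 4 groups, with the median as a line. The main transcript lies between 77959 and 96192 in all libraries, while NM_011393 falls into values up to 455 and values from 710, in every group.

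Gfap was then set against the astrocyte genes within each library, as its log2 count minus the mean log2 count of the 9. This value uses the Gfap counts that chose the gene and is a description. Its mean was -2.76 ± 0.22 in sham and -2.49 ± 0.27 in HF-HI under saline, and -2.81 ± 0.16 and -2.39 ± 0.21 under memantine (SD, n = 10 each). HF-HI exceeded sham by 0.27 under saline and 0.43 under memantine, close to the changes of Gfap alone, 0.29 and 0.45. Of the HF-HI libraries, 3 of 10 under saline and 8 of 10 under memantine lay above the highest sham library. With the 49 other astrocyte identity genes in place of the 9, the differences were 0.33 and 0.49.

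**Figure D4:**
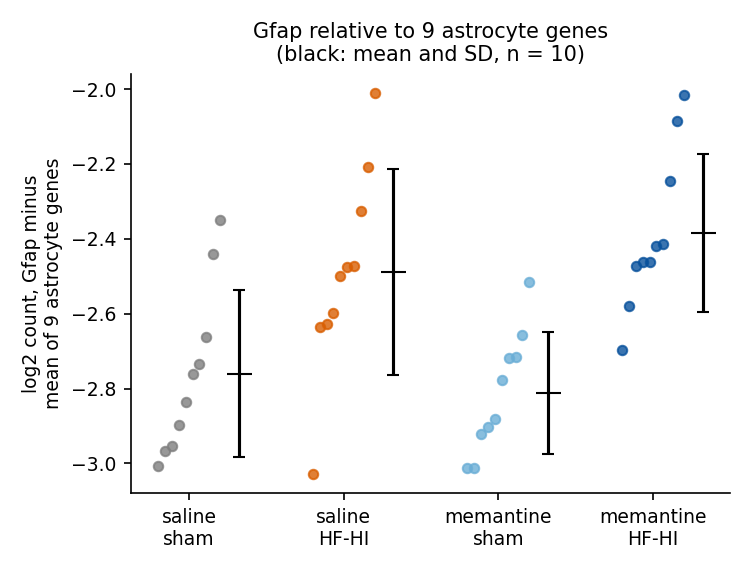
Log2 count of Gfap minus the mean log2 count of the 9 astrocyte genes (vertical axis) in each library, with the mean and SD of 10 libraries in black. The HF-HI means stand at -2.49 and -2.39, above sham means of -2.76 and -2.81, and the groups overlap.

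The 49 other astrocyte identity genes, in 59 transcripts, changed little as a list. At an unadjusted p under 0.05, 1 transcript was higher and 3 lower after impact under saline, beside 4.58% and 4.95% of all transcripts. Under memantine 0 were higher and 3 lower, beside 2.39% and 2.23%. The median log2 change was -0.04 and -0.01. Htra1, a secreted protease, had a mean of 2256 ± 155 in saline sham and 2033 ± 112 in saline HF-HI (SD, n = 10 each, change -0.15, limma p = 0.000706, adjusted p = 0.165). Sparcl1, which encodes the synapse-promoting protein hevin, had a median of 31585 in saline sham and 33535 in saline HF-HI (0.10, p = 0.00277, adjusted p = 0.250). Ptprz1, a receptor phosphatase, changed by -0.32 (p = 0.0311, adjusted p = 0.485) and Dbi, an acyl-CoA-binding protein, by -0.12 (p = 0.0442, adjusted p = 0.508). Under memantine these genes kept their direction but did not pass. There Htra1 changed by -0.08 (limma p = 0.0531), Sparcl1 by 0.06 (p = 0.0612), Ptprz1 by -0.30 (p = 0.0546) and Dbi by -0.04 (p = 0.462). The limma p for a difference between the arms was 0.239, 0.374, 0.858 and 0.350 in that order. Under memantine Mt3, a metallothionein, changed by -0.13 (p = 0.0428) and the neurotensin receptor Ntsr2 by -0.11 (p = 0.0236), each with a limma adjusted p of 0.967.

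Of 42 genes on a list of reactive astrocyte genes, 3 were in the table, so most of the reactive programme could not be read beside Gfap. C4b, a complement component, was the 1 of them that passed an adjusted p under 0.1 in both impact comparisons. Over all transcripts that rule called 0.205% under saline and 0.0146% under memantine. The C4b mean was 550 in sham and 693 in HF-HI under saline, and 478 and 667 under memantine (n = 10 each). The lowest mean in the table was 549.2, so C4b may be in it only through its HF-HI libraries. Its call is therefore given as a description. Fkbp5, a glucocorticoid-induced chaperone, had a median of 1044 in saline sham and 850 in saline HF-HI (log2 change -0.28, limma p = 0.0186, adjusted p = 0.428), and under memantine its change was 0.02 (p = 0.782, adjusted p = 0.993). Synm, a filament protein that joins GFAP filaments, had changes of 0.03 (p = 0.668, adjusted p = 0.925) and 0.06 (p = 0.505, adjusted p = 0.976). From saline sham to memantine sham, Fkbp5 changed by -0.24 (limma p = 0.0378, adjusted p = 0.636) and C4b by -0.20 (p = 0.00912, adjusted p = 0.554). These were 2 of 3 reactive transcripts, beside 7.51% of all transcripts. The same sham libraries serve the impact comparisons. For Fkbp5 the impact changes of the 2 arms differed by 0.30 (p = 0.0604, adjusted p = 0.999). Of 20 genes that encode regulators known to act on the Gfap promoter, 14 were in the table. Nfib, a nuclear factor I protein, had a median of 2383 in saline sham and 2613 in saline HF-HI (0.20, limma p = 0.0168, adjusted p = 0.415). Under memantine Notch1 had a median of 939 in sham and 840 in HF-HI (-0.16, p = 0.0241, adjusted p = 0.967). Notch1 was also 0.14 higher in memantine sham than in saline sham (limma p = 0.0396, adjusted p = 0.640). Both Notch1 differences use the same memantine sham libraries. Nfib was 0.23 higher in that comparison of sham groups (p = 0.00568, adjusted p = 0.511). There 3 of 14 regulators passed an unadjusted p under 0.05, all higher, beside 7.51% of all transcripts. No other regulator passed in either impact comparison, so 1 of 14 passed in each, beside 9.53% of all transcripts under saline and 4.61% under memantine. Of 6 microglial genes in the table, 2 were higher after impact at an unadjusted p under 0.05 in each arm, beside 4.58% of all transcripts under saline and 2.39% under memantine, and their summed count was 5666 ± 361 in sham and 5943 ± 277 in HF-HI under saline, and 5633 ± 287 and 5888 ± 307 under memantine (SD, n = 10 each). The part of microglia in the Gfap values was not tested.

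Gfap differed among libraries of the same group too, and the members that went with it there were few. After group means were removed, the log2 counts of Gfap and Aqp4 correlated over 40 libraries with a Pearson r of 0.66 (permutation p = 3e-05, adjusted p = 0.00027 over 9 genes) and a Spearman rho of 0.58 (p = 0.00017, adjusted p = 0.00153). An adjusted p under 0.05 was required of these correlations. For Gfap and S100b, r was 0.55 (permutation p = 0.00036, adjusted p = 0.00162) and rho 0.47 (p = 0.00288, adjusted p = 0.013). Aldoc came next with r = 0.37 (permutation p = 0.0252, adjusted p = 0.0756) and missed that threshold. The other 6 genes had r between -0.24 and 0.29 and missed it too. By rank, Aldoc and Clu each had an adjusted permutation p of 0.0857. Within the 4 groups the r of Gfap and Aqp4 was 0.50, 0.97, 0.46 and 0.53, and that of Gfap and S100b 0.46, 0.84, 0.39 and 0.42, in the order sham and HF-HI under saline, then sham and HF-HI under memantine. Without the 2 libraries farthest from the Gfap median, saline HF-HI replicates 8 and 10, r was 0.56 for Aqp4 and 0.43 for S100b. For the 2 transporters no relation to Gfap passed, with r = -0.08 for Slc1a2 (p = 0.662) and r = -0.24 for Slc1a3 (p = 0.153), by the permutation test.

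**Figure D5:**
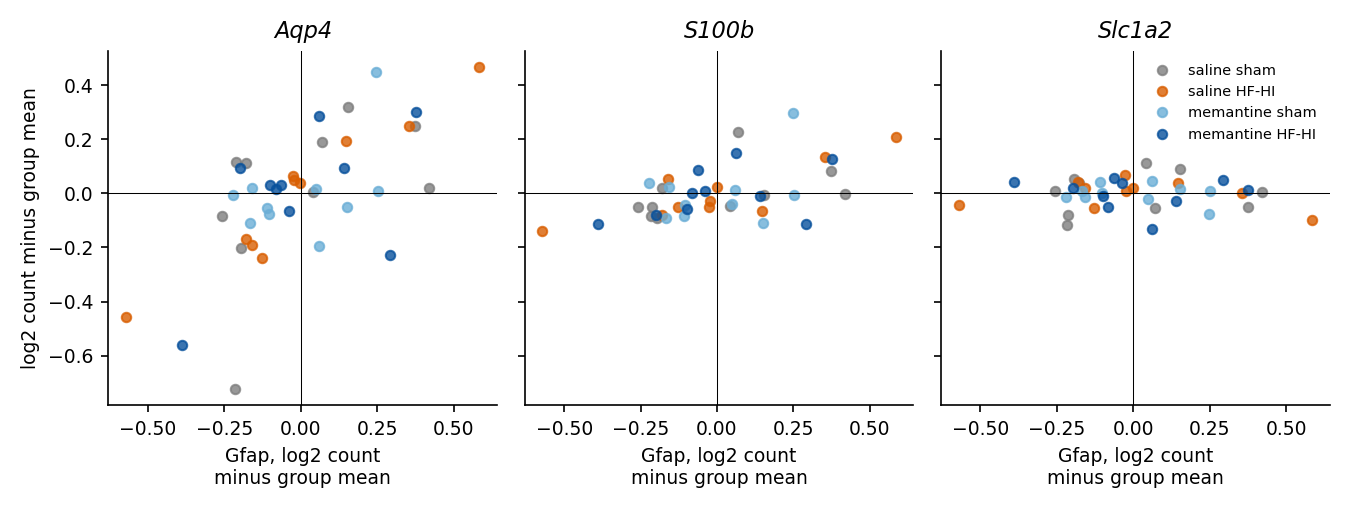
Log2 count minus the group mean for Aqp4, S100b and Slc1a2 (vertical axes) against that of Gfap (horizontal axes), 1 point per library, coloured by group. Aqp4 and S100b rise with Gfap, with r = 0.66 and 0.55, while Slc1a2 stays flat with r = -0.08.

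Oligodendrocyte markers moved with these 3 genes, and so did the other astrocyte and microglial markers. With group means removed, the mean log2 count of 12 oligodendrocyte markers had r = 0.57 with Gfap, 0.64 with Aqp4 and 0.61 with S100b over the 40 libraries. When that mean was also removed from every gene, the r of Gfap and Aqp4 was 0.46 (permutation p = 0.00424, adjusted p = 0.0382), with a rho of 0.44 that missed the threshold (adjusted p = 0.0631), and that of Gfap and S100b 0.31 (p = 0.06, adjusted p = 0.270). The mean of the 49 other astrocyte identity genes had r = 0.47 with Gfap, 0.43 with Aqp4 and 0.55 with S100b. For the mean of 6 microglial genes these r were 0.38, 0.43 and 0.45. With Gfap, Aqp4 and S100b the endothelial marker mean had r = 0.27, 0.06 and 0.11. In the same order these r were 0.02, -0.31 and -0.20 for the neuronal mean. They were 0.01, 0.03 and -0.02 for the striatal mean.

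Over all 6830 other transcripts and the 40 libraries, the 5 most like Gfap on the deposited scale were C4b (r = 0.77), Sptlc2 (0.65), Aldh1a1 (0.60), Trf (0.59) and Epb41l2 (0.59). With group means removed they were Aldh1a1 (0.70), Trf (0.69), Cnp (0.69), Gpr37 (0.67) and Sptlc2 (0.66). Trf encodes transferrin and Cnp a myelin enzyme, and both are on the oligodendrocyte list. These r are descriptions over libraries that share their depth and tissue composition. Among the members themselves, the likeness to Gfap with group means removed ranked S100b at 50 and Aqp4 NM_009700 at 62 of 6830 transcripts, while the other Aqp4 transcript, NM_001308647, ranked at 2583 (r = 0.06) and Slc1a3 ranked at 5949. C4b had a median of 546 in sham and 679 in HF-HI under saline, and 475 and 654 under memantine. Cnp had medians of 2087 and 1986 under saline and 2169 and 1968 under memantine. In the same order the medians were 5233, 4989, 5185 and 5247 for Trf, and 1147, 1255, 1220 and 1203 for Gpr37. They were 713, 731, 723 and 704 for Aldh1a1, and 888, 868, 879 and 931 for Sptlc2. For Epb41l2 they were 1823, 1901, 1816 and 1910.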

How the data were processed

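Cortical RNA of mice was sequenced, with libraries prepared by an outside company per the labels. Per the study's methods the authors aligned reads to mm10 with STAR and counted reads per transcript with eXpress, while the submitters' processing notes name HISAT2 and StringTie, so which tool made the table is uncertain. The values the authors deposited are counts after the variance-stabilising transformation of their DESeq2 run, a log2 scale that flattens toward low counts. The minimum abundance behind the table is not given in the sources used here. Normalised counts were recovered by inverting it from its floor of 10.36, and all values below 5000 (100% in each library) came out as whole multiples of 1 step within a tolerance of 0.02. The size factors ran from 0.859 to 1.141. A change of 1 in log2 counts appears as 0.4 on the deposited scale at a count of 1000, and counting error at the lowest mean count of 549 is 4.27%. Symbols for 99.56% of transcripts, lengths and positions came from annotation of GRCm38.p6.

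Groups came from the labels, with 10 libraries each, although the series' design text gives 4 samples per group. The labels do not say that each library is a separate mouse, so p-values measure the spread between these libraries. limma 3.58.1 in R 4.3.3 (lmFit, eBayes with trend) was fitted to the deposited values of all 6831 transcripts with a term per group, two-sided, with adjustment over the whole table. Log2 changes and 95% intervals came from the same fit to log2(count + 1). No count model was used. Correlations were tested with 100000 two-sided permutations of libraries within groups. Scripts were tested on simulated data. Members, gene lists and tests were chosen with earlier results of these data known. Text names all member transcripts, transcripts of the 3 astrocyte and regulator lists at an unadjusted p under 0.05 in an impact comparison (all 3 for the reactive list), and the 5 most like Gfap. The values of 1 transcript that this rule names are not reported here. Alternatives varied the scaling, filter, variance prior, weights, covariates, replicate block, summing by symbol and the libraries used.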

Additional observations from a re-analysis of the deposited data

Results flagged for a closer look

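In 11 of 56 sets of 10 libraries (14 transcripts in 4 groups), 1 library stood apart from its group by a gap to its nearest neighbour that was large for the range of the group (Dixon's 95% criterion), where chance gives about 1 in 20. High values were an Aqp4 NM_001308647 count of 1280 in memantine sham replicate 6, an Aldoc NM_001303423 count of 9942 in memantine HF-HI replicate 3 and an Aldoc NM_009657 count of 1803 in memantine sham replicate 1. Others were a Glul count of 28980 in memantine HF-HI replicate 5, an Slc1a2 NM_001077515 count of 4412 in saline sham replicate 10, and Slc1a3 counts of 9096 in saline HF-HI replicate 1 and 9214 in memantine sham replicate 9. S100b was high at 1845 in saline sham replicate 10 and at 1942 in memantine sham replicate 1. Low values were an Aqp4 NM_009700 count of 465.1 in memantine HF-HI replicate 5 and an Slc1a2 NM_001077514 count of 77960 in memantine HF-HI replicate 1. No Gfap library stood apart in this way. No library was removed.

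Among 14 tests of whether impact acted differently in the 2 drug arms, 2 had an unadjusted limma p under 0.05. Over all transcripts this share was 3.73%. The 2 were the minor Slc1a2 transcripts NM_001077515, with a difference of -2.32, and NM_011393, with -0.92, on the log2 count scale. These transcripts share exons, and reads were divided among them, so they are not separate results. Neither passed adjustment.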

How the results depend on the processing

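The log2 change of Gfap kept its direction under every alternative and with any 1 library left out. It ran from 0.26 to 0.31 under saline and from 0.44 to 0.47 under memantine over the alternatives, and from 0.23 to 0.36 and from 0.40 to 0.49 with 1 library left out. The memantine differences of Gfap ran from 0.01 to 0.14 in HF-HI and from -0.11 to -0.03 in sham with 1 library left out, and the difference between arms from 0.09 to 0.22, none with a p under 0.05. Gfap relative to the 9 genes ran from 0.22 to 0.33 under saline and from 0.39 to 0.46 under memantine, and from 0.04 to 0.16 and -0.08 to -0.01 between drugs.

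Of the 13 transcripts of the 9 other genes, 1 passed an unadjusted p under 0.05 in each pairwise comparison and 2 in the test between arms. With an adjusted p under 0.1 the count was 0 in all 5. The alternatives below count transcripts at an unadjusted p under 0.05. Under saline this count was 2 with library weights, the striatal covariate or the replicate block. Under memantine it was 2 with the striatal covariate or the summed count as a covariate. Between drugs in HF-HI it was 2 with quantile normalisation and 0 with a minimum mean count of 1000, which leaves out NM_011393, with library weights, with summing by symbol and with the striatal covariate. Between drugs in sham it was 2 with library weights. Between arms it was 1 on log2 counts and with the minimum of 1000, and 0 with summing by symbol or the striatal covariate. With 1 library left out these unadjusted counts ran from 0 to 3 under saline and from 1 to 2 under memantine. They ran from 0 to 2 between drugs in HF-HI, 1 to 3 in sham and 1 to 2 between arms. The p of Glul under saline was above 0.05 without any 1 of 10 libraries (saline sham 1, 2, 6, 8 and 10, saline HF-HI 3, 4, 8, 9 and 10), at most 0.0908, with the striatal covariate (p = 0.108) and with only the 2 groups compared (p = 0.056). The p of NM_011393 in HF-HI was above it for 13 libraries (at most 0.0795) and that of NM_001077515 between arms for 17 (at most 0.0743). Both Gja1 calls held with any 1 library left out. Pairs of Gfap with another member at a Pearson adjusted p under 0.05 numbered 2, and 1 with the oligodendrocyte marker mean removed, which was chosen after seeing the data. They ran from 2 to 4 with 1 library left out, with 4 only without saline HF-HI replicate 8. Where no cause is named, the cause was not tested.

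No pairing of samples by replicate number was seen. Over 60 pairs, libraries with the same number had a mean correlation of deviations of 0.002 (-0.13 to 0.16), and 6 matched their own number best. A weak pairing could be missed in this way. With the replicate block the Gfap changes stayed at 0.29 and 0.45. Counting error limits the lowest transcripts, and genes below the abundance of this table were not read.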
